A study of Homo sapiens with 18 samples.

Results

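K562 is a cell line from a chronic myeloid leukaemia that carries the BCR-ABL1 fusion kinase and has erythroid features. The comparison described here is that of the untreated KRAB-D9 derivative of K562 with the untreated parental line. Its members are the 4 libraries whose labels give the line K562[KRAB]-D9 or K562[parental] together with no treatment, 2 for each line, of 18 libraries in the series. All genes were read, and 22143 of 41285 passed a filter on low counts. In KRAB-D9 cells a dCas9-KRAB fusion can be induced with doxycycline. dCas9 is a Cas9 protein without cutting activity, and the KRAB domain recruits repressors of transcription to the site where a guide RNA places it. No doxycycline had been added to either group, so that the comparison gives the baseline of the repressor line. Polyadenylated RNA was sequenced with a stranded kit.

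A further 4 libraries from the same lines were used beside these, 2 of parental and 2 of KRAB-D9 cells after 24 hours with interferon alpha (IFN) at 1000 U/mL and no doxycycline. Another line, VPR-D9, carries an inducible dCas9 activator and served untreated (2 libraries) to show whether a difference from parental cells was also found there. The series' design calls the 3 lines isogenic. The labels do not say what D9 stands for, whether an engineered line is 1 clone or a pool, or whether both libraries of a group are from different cultures. Line, construct and culture history therefore cannot be told apart, and p-values measure only the spread between these samples. Bulk RNA also cannot tell a smaller share of cells expressing a gene from less RNA per cell.

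The 4 libraries held between 45964300 and 57957700 counts, to 6 digits, and 4.11 to 4.42% of them were of mitochondrially encoded genes. Log levels correlated at 0.997 within each line and at 0.975 between lines, over 13259 genes with a mean of at least 1 CPM. All levels below are CPM, a gene's counts scaled to a common library total, after TMM scaling, which sets those totals so that most genes come out equal. Differences are log2, KRAB-D9 minus parental, with a standard error (±). A gene is called higher or lower at a Benjamini-Hochberg adjusted p under 0.05 from edgeR's quasi-likelihood test over 22143 genes. Of 12 genes kept as a check of K562 identity, 10 were called higher in KRAB-D9 and none lower. Among them are the erythroid regulator GATA1 (mean 198 CPM in parental and 225 CPM in KRAB-D9 cells), the gamma-globins, and BCR (165 and 185 CPM), the 5′ partner of the fusion. The stem cell markers CD34, FLT3 and PROM1 and the granulocyte genes MPO and ELANE had no counts in any of the 4 libraries.

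The study was built around SAMD9. This cytoplasmic protein and its neighbour and paralogue SAMD9L restrain growth and viral replication, and both genes respond to interferon. Interferon acts through the factor ISGF3, whose binding motif, the ISRE, holds a repeat of GAAA. Both genes lie on the reverse strand of chromosome 7. RefSeq promoter windows of 300 bases, 250 before the start of transcription to 50 after it, were searched on both strands for GAAANNGAAA. The 250 bases before each start are shown 5′ to 3′, because interferon was used in the study to induce SAMD9 and because its paralogue has the motif only in part. Capitals mark the match.

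SAMD9, chr7:93117980-93118229 (GRCh38.p14, reverse strand): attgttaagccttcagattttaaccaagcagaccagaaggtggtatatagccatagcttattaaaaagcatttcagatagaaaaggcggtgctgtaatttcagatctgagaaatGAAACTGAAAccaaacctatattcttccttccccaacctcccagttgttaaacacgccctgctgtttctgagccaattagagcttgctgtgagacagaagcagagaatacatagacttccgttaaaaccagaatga
SAMD9L, chr7:93148386-93148635 (GRCh38.p14, reverse strand): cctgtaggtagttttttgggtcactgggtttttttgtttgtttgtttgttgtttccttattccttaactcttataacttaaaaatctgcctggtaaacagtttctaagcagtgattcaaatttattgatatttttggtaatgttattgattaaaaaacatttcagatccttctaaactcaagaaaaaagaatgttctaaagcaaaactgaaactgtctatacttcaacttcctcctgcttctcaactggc

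The SAMD9 window held 1 match, GAAACTGAAA, which began 136 bases before the start, and 4 CG dinucleotides. The SAMD9L window held no CG and no full match, but aaaactgaaa, which is 1 letter off and began 48 bases before the start. Of 35116 RefSeq promoter windows of this length, 3.57% held the full motif and 33% a stretch at most 1 letter off.

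SAMD9 (ENSG00000205413.8, chromosome 7, 93099513 to 93118023, GRCh38) was at 9.31 and 9.05 CPM in the parental libraries and at 0.75 and 0.364 CPM in the KRAB-D9 libraries, from 40 and 16 counts. The groups were far apart, and the KRAB-D9 level was 15.9-fold lower before any doxycycline was given (-3.99 ± 0.16, edgeR Benjamini-Hochberg adjusted p = 2.1e-18). SAMD9L (ENSG00000177409.12, chromosome 7, 93130056 to 93148385) was at 1.6 and 1.07 CPM in parental and 0.487 and 0.273 CPM in KRAB-D9 cells, 3.45-fold lower (-1.78 ± 0.30, edgeR Benjamini-Hochberg adjusted p = 8.79e-06). The size rests on few KRAB-D9 counts, and for SAMD9 it was -4.65 without KRAB-D9 replicate 1 and -3.61 without replicate 2. In untreated VPR-D9 cells SAMD9 stood at 59.9 and 61.4 CPM, above both other lines.

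The same line difference was smaller in SAMD9, and reversed in SAMD9L, when the cells had been given IFN. SAMD9 was then at 168 and 154 CPM in parental and at 55.0 and 53.5 CPM in KRAB-D9 cells (-1.57 ± 0.06). SAMD9L was at 23.5 and 22.5 CPM in parental and at 37.2 and 31.8 CPM in KRAB-D9 cells, and was called higher (0.58 ± 0.13, edgeR Benjamini-Hochberg adjusted p = 0.000587). The change of the line difference was called for both, at 2.42 ± 0.19 for SAMD9 (edgeR Benjamini-Hochberg adjusted p = 3.19e-09) and 2.36 ± 0.32 for SAMD9L (adjusted p = 3.11e-05).

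**Figure D1:**
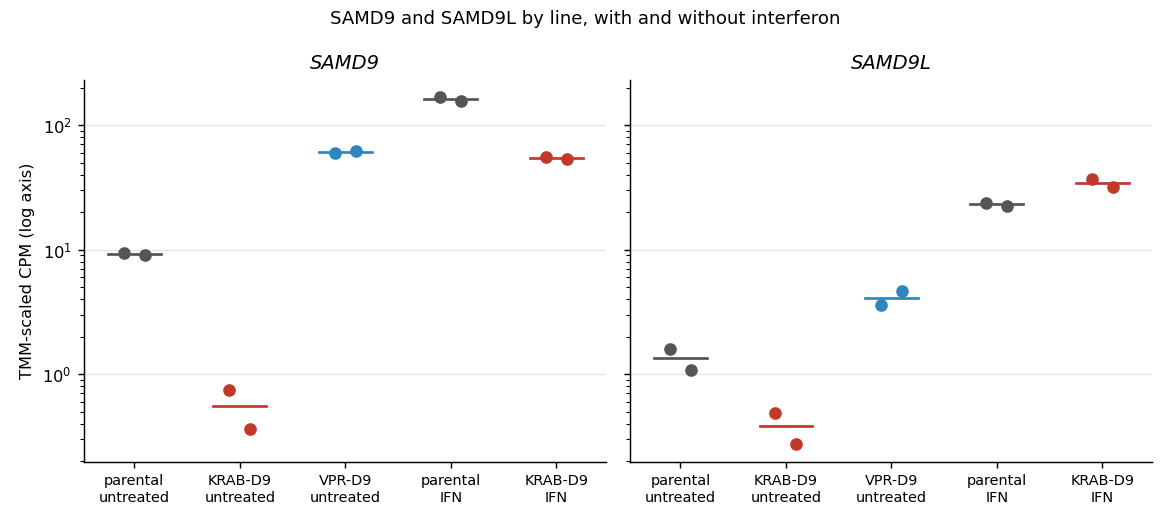
SAMD9 and SAMD9L in single libraries (points) and their mean (bars) as TMM-scaled CPM on a log axis, for 5 groups of 2 libraries. The untreated KRAB-D9 libraries lie lowest for both genes, at 0.75 and 0.364 CPM for SAMD9 and 0.487 and 0.273 CPM for SAMD9L.

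Of the 33 listed neighbours of the pair on band 7q21, 27 could be tested, and 4 were called higher (14.8%) and 6 lower (22.2%), with a median of -0.06. Over all tested genes these shares were 14.2 and 14.3%. Without parental replicate 1, parental replicate 2 or KRAB-D9 replicate 2, 3 neighbours were lower. HEPACAM2, an adhesion protein gene that is next to SAMD9L, was at 2.11 and 2.53 CPM in parental and 11.8 and 12.4 CPM in KRAB-D9 cells (2.38 ± 0.15). GNG11, a G protein gamma subunit, was higher by 3.64 ± 0.34 (0.369 to 4.65 CPM), and COL1A2, a collagen I chain, by 2.62 ± 0.14 (4.81 to 29.7 CPM). Of the lower members, ANKIB1 differed by -0.36 (47.7 to 37.1 CPM) and KRIT1 by -0.25. CALCR, the calcitonin receptor gene, had 0.135 CPM in parental cells and no counts in KRAB-D9. The imprinted gene PEG10 was not called (mean 1.04 and 0.383 CPM, edgeR adjusted p = 0.0781).

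Over the whole table, 3144 genes were higher and 3162 lower in KRAB-D9, 28.5% of those tested (14.2% higher and 14.3% lower). The median difference over all genes was 0.01. Changes over 2-fold numbered 802 higher and 780 lower. Of 13259 genes with a mean of at least 1 CPM, 41.7% were called. Lists of well expressed genes are read below against that share, 20.9% higher and 20.9% lower. Counts over small lists are unsteady. Of 68 list counts, 13 to 15 moved by over 1.5 times when 1 of the 4 libraries was left out, and such counts are named beside their list.

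Of the 12 largest rises among genes with at least 1 CPM, 11 were of genes under 1 CPM in parental cells. STRA6, the cell-surface receptor for retinol-binding protein and the exception, was at 2.94 and 2.06 CPM in parental cells against 42.7 and 44.8 CPM in KRAB-D9 (4.12 ± 0.12, edgeR Benjamini-Hochberg adjusted p = 1.73e-26). The neuropeptide gene NTS was at 0.504 and 0.444 against 13.7 and 13.1 CPM, and the noncoding RNA FILNC1 at 0 and 0.162 against 8.51 and 8.96 CPM.

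A further 8 of the 12 lay between 1.95 and 4.27 CPM in KRAB-D9 cells. They were RUNX1T1, a corepressor known from a leukaemia fusion, SOD3, an extracellular superoxide dismutase, FLT1, a receptor for VEGF, VSIG4, a complement receptor, TMEM163, a zinc transporter, the neighbouring tripartite motif genes TRIM10 and TRIM15, and FAM110B. Their differences ran from 4.03 (TRIM10) to 5.33 (RUNX1T1). Some of the parental counts came mostly from replicate 2. FILNC1 had 0 and 8 counts in parental replicates 1 and 2, RUNX1T1 0 and 6, FAM110B 1 and 12, and VSIG4 1 and 10.

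The 12 largest falls were of genes near silence in KRAB-D9 cells, and most of them were low in untreated VPR-D9 cells too. PLGRKT, a plasminogen receptor, was at 5.85 and 6.36 CPM in parental cells and had no counts in KRAB-D9, at least 98.2-fold lower against a floor of 3 counts per library. S100A6, a calcium-binding protein, was at 5.37 and 5.56 CPM and at least 87.8-fold lower. LRATD1 and CXCL11, a chemokine induced by interferon, also had no counts in KRAB-D9, and were at least 65.8- and 48.4-fold lower.

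The axon guidance pair of SLIT2, a secreted ligand, and ROBO2, one of its receptors, was near silence in KRAB-D9 cells. In untreated VPR-D9 cells SLIT2 was low too, at 0.0837 and 0.268 CPM, and ROBO2 at 0.0167 and 0.0947 CPM. SLIT2 was at 17.2 and 15.9 CPM in parental cells and had 0 and 2 counts in KRAB-D9 (ratio 807, exact 95% counting interval 223 to 6670). ROBO2 was at 8.30 and 6.87 CPM against 0.075 and 0.0455 CPM (-6.89 ± 0.56). TLE4, a Groucho corepressor, was at 7.51 and 7.27 against 0.169 and 0.0227 CPM (-6.14 ± 0.29), while untreated VPR-D9 cells had 15.3 CPM. The others were ANO5, MUC19, PRR16 and the cancer-testis genes CTAG2 and SSX3.

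These 24 genes were also read in the treated libraries. In 11 of the 12 rises and all 12 falls, each of the 6 treated KRAB-D9 libraries lay on the same side of both parental IFN libraries as the untreated ones did. In VSIG4 the treated KRAB-D9 libraries ranged from 0.163 to 2.16 CPM. Untreated KRAB-D9 against untreated VPR-D9 cells, in which 39.3% of all genes were called in either direction, uses the same KRAB-D9 libraries that chose these genes, so nothing is read from the 12 rises and 10 falls called on the same side. Most of the falls were low in VPR-D9 cells too. Mean VPR-D9 levels were 0.127 CPM for PLGRKT, 0.0237 for S100A6, 0.0557 for ROBO2, 0.176 for SLIT2, 0.314 for CTAG2, 0.864 for SSX3, 0.527 for CXCL11, 0.612 for ANO5 and 1.26 for PRR16. By contrast LRATD1 had a mean of 8.10 CPM in VPR-D9 cells and MUC19 4.64 CPM, against 4.09 and 3.995 CPM in parental cells.

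**Figure D2:**
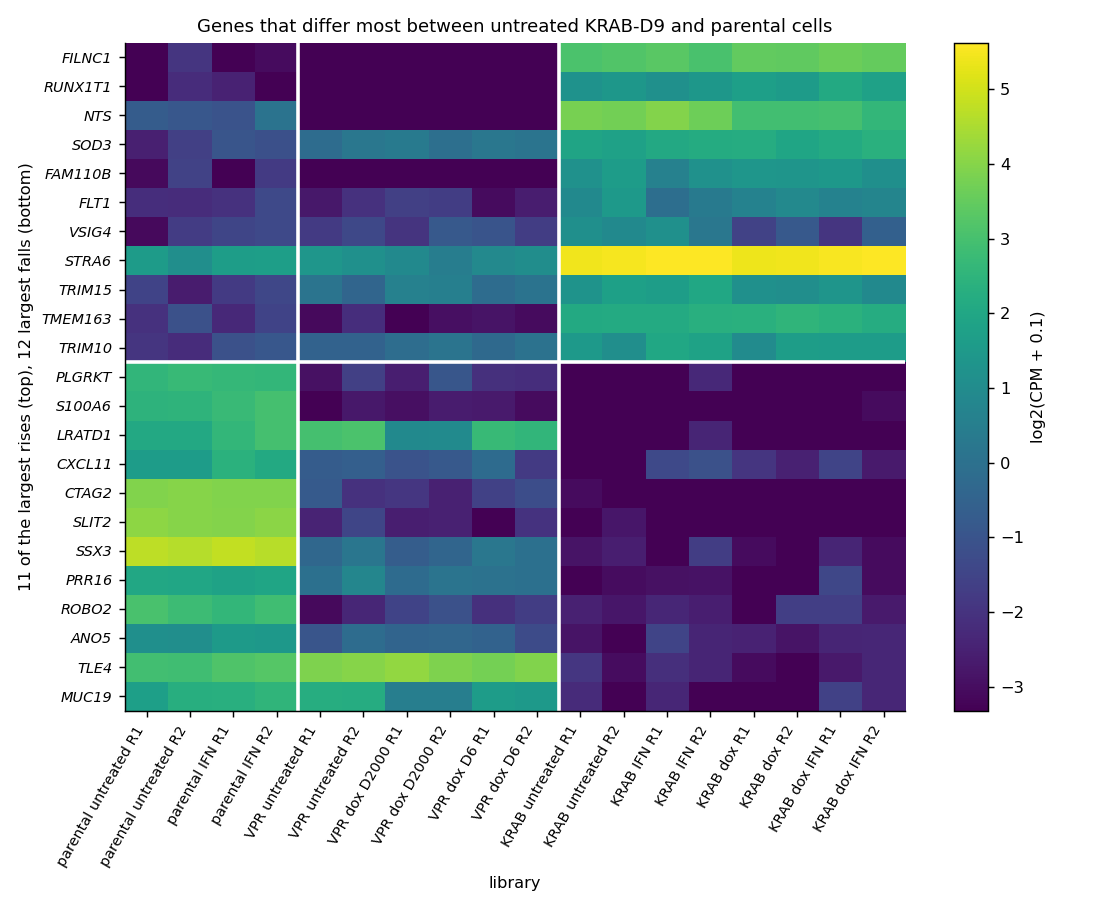
11 of the 12 strongest rises and the 12 strongest falls (rows) in each of the 18 libraries (columns), coloured by log2(CPM + 0.1), with white lines between the parental, VPR-D9 and KRAB-D9 libraries. In each row but that of VSIG4 the 6 treated KRAB-D9 libraries lie beyond both parental IFN libraries.

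A stricter rule asked for genes with at least 1 CPM in both libraries of one line and at most 3 counts in each library of the other. In this sense 16 genes were expressed in parental cells only and 2 in KRAB-D9 only. The 16 include SSX3, SLIT2, CTAG2, PLGRKT, S100A6, LRATD1, PRR16, CXCL11 and ANO5, already named, and TMEM108, ZNF597 and ZNF677, which were found outside the naming rule and chosen after their values were seen. Of the 16, 2 had at least 1 CPM in both untreated VPR-D9 libraries. Expressed in KRAB-D9 only were GJA5, a gap junction protein (1.39 and 1.5 CPM against no counts, at least 25.2-fold higher), and the noncoding LINC01099 (1.46 and 1.48 CPM, with 3 and 2 counts in parental cells). In the 6 treated KRAB-D9 libraries GJA5 was under 1 CPM, at 0.181 to 0.738 CPM. The counts of 16 and 2 genes follow the thresholds. At 0.5 CPM they were 39 and 10, and at 2 CPM 9 and 0.

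The genes that gained or lost the most CPM were abundant ones, as such a ranking favours. EEF1A1, the elongation factor, was at 11469 and 11797 CPM in parental and 14293 and 14241 CPM in KRAB-D9 cells (0.29 ± 0.03). HNRNPA1, a splicing factor, the ribosomal protein genes RPS18 and RPL13A, MT-ND5 and the embryonic globin HBZ were the other gains. The largest loss was of HSP90AA1, the inducible HSP90 chaperone, from 3549 and 3595 to 2420 and 2419 CPM (-0.56 ± 0.04). HSP90AB1 (-0.22), MT-ND2 (-0.47), the cyclophilin gene PPIA (-0.57), HNRNPA2B1 (-0.44) and the nucleolar NPM1 (-0.19) followed. EEF1A1, HNRNPA1, PPIA and the ribosomal protein genes have many processed pseudogenes, and the files do not say how reads with several places were counted.

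PPIA and HNRNPA2B1 lie on the short arm of chromosome 7 (7p), where most genes were lower. The same held for the long arm of chromosome 17 (17q). Of 577 genes on 17q with at least 1 CPM, 430 were called lower and 23 higher, and the median difference was -0.48. Of 208 on 7p, 137 were lower and 12 higher, with a median of -0.39. On the other arm of each chromosome the median was 0.05 (17p, 230 genes) and -0.02 (7q, 445 genes). Over all other arms with at least 50 such genes the medians lay between -0.05 (4q) and 0.13 (Xp).

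The shift was not limited to 1 stretch of either arm. Windows of 25 neighbouring genes had medians from -0.68 to -0.17 in all 38 windows of 17q and from -0.56 to -0.23 in all 14 windows of 7p. With windows of 15 genes 95.3% of those on 17q had a median under 0, the highest being 0.10, and all of those on 7p. The shift was also present in single libraries. Genes of 17q took 3.40 and 3.41% of the counts in the untreated KRAB-D9 libraries and 4.76 and 4.73% in the parental ones. Over all treatments they took 3.31 to 3.43% in 8 KRAB-D9 libraries, 4.73 to 4.83% in 4 parental libraries and 4.85 to 5.13% in 6 VPR-D9 libraries. For 7p the ranges were 1.51 to 1.64% in KRAB-D9, 2.04 to 2.11% in parental and 1.85 to 2.01% in VPR-D9. No group of libraries overlapped another for 17q or for 7p. No measurement of DNA was analysed here.

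**Figure D3:**
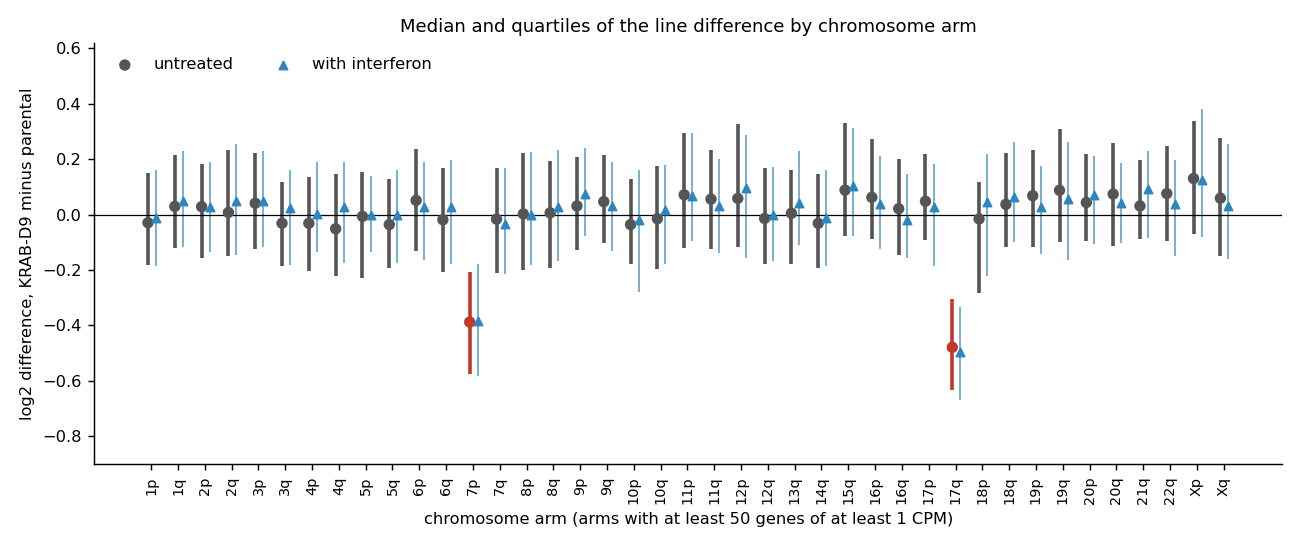
Median (symbols) and quartiles (lines) of the log2 difference between the lines (KRAB-D9 minus parental) over genes of at least 1 CPM on each chromosome arm, untreated (circles, red for 17q and 7p) and with IFN (blue triangles). The medians of 17q (-0.48 untreated, -0.50 with IFN) and 7p (-0.39 in each) lie apart from those of the other arms.

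Outside 17q and 7p, 3101 genes were higher and 2546 lower of 20814 tested. So most calls lay elsewhere, but the balance between the directions depended on those arms. When TMM factors were taken without their genes, 2727 were higher and 3602 lower. Counts without the members there are given below for ribosomal protein, ribosome biogenesis, stress response and G2/M genes. The other list counts include such members. Without them, interferon-stimulated genes were 10 higher and 17 lower of 66, and interferon receptor signalling genes 3 and 1 of 16. Erythroid and haematopoietic transcription factors were 11 and 3 of 30. Cholesterol synthesis genes were 11 and 7 of 28, and KRAB machinery genes 7 and 8 of 36.

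Some shorter stretches stood out among windows of 25 tested genes. The lowest lay on chromosome 4 at 73052362 to 76112802 (median -1.0, 12 of 25 genes lower). It holds AFP, which encodes alpha-fetoprotein, ALB, which encodes serum albumin, the growth factor EREG (from 9.18 and 11.6 to 0.206 and 0.318 CPM), and the CXC chemokines CXCL8, CXCL2 and CXCL3. The highest lay on chromosome 7 at 141836300 to 143523449 (median 1.04, 10 higher). Its genes include EPHB6, a kinase-dead ephrin receptor (5.56 and 4.28 against 57.2 and 60.5 CPM), TRPV6, a calcium channel, KEL, the Kell blood group protein, and the constant segments of the T-cell receptor beta locus, TRBC1 and TRBC2. On chromosome 6, TRIM10 (4.03) and TRIM15 (4.11) were higher and their neighbour TRIM26 lower (-4.53, 8.91 and 7.45 against 0.225 and 0.5 CPM). These windows were picked for their values and are given as a description. With 50 genes, or with genes of at least 1 CPM, the lowest window lay on 17q (-0.57 and -0.59), and the highest 7q window was 0.15 and 0.17.

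Of the genes of red-cell maturation, those for globins and for the red-cell membrane and blood groups were mostly called higher in KRAB-D9. Of 11 genes for globins and the alpha-globin chaperone AHSP, 9 were called higher and none lower (median 0.75, against 0.01 over all genes). Their summed level was 513 and 513 CPM in parental and 1382 and 1385 CPM in KRAB-D9 cells. Zeta-globin HBZ, an embryonic alpha-type chain, was at 96.4 and 95.5 against 617 and 635 CPM (2.7 ± 0.12, edgeR Benjamini-Hochberg adjusted p = 5.24e-08). HBA2 was higher by 1.44, HBA1 by 1.28, HBG1 by 0.61, HBG2 by 0.55, HBE1 by 0.75 and HBM by 2.79 ± 0.28. Adult beta-globin HBB was at a mean of 0.691 and 0.174 CPM (edgeR adjusted p = 0.0603) and HBD at a mean of 25.9 and 28.3 CPM (edgeR adjusted p = 0.325). Without KRAB-D9 replicate 2, 1 globin gene was called lower. HBA1 with HBA2 and HBG1 with HBG2 are near-identical copies, between which reads cannot be safely divided.

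In haem synthesis, ALAS2, the first and erythroid enzyme of the pathway, was at 37.7 and 37.2 CPM in parental and 238.1 and 251.5 CPM in KRAB-D9 cells, 6.54-fold higher (2.71 ± 0.05, edgeR Benjamini-Hochberg adjusted p = 2.58e-33). The mitochondrial iron importer SLC25A37 was higher by 0.76 ± 0.04, the ferritin chain FTH1 by 0.48, and the enzymes CPOX, PPOX, UROS and UROD by 0.45, 0.43, 0.39 and 0.17. In all 12 of 29 members were higher and 5 lower (median 0.12). The lower ones include BLVRA, a biliverdin reductase on 7p (-1.09 ± 0.07), the iron exporter SLC40A1 (-0.67) and TFR2 (-0.43).

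Red-cell membrane and blood group genes showed the same direction in 21 of 33 members, with 2 lower (median 0.41). The glycophorin gene GYPE was at 38.8 and 40.3 against 99.7 and 101 CPM (1.34 ± 0.05), and GYPB was higher by 2.44. The glycophorins share long stretches of sequence, so reads may be divided wrongly among them. The Kell gene KEL was higher by 0.80 ± 0.05, the spectrin SPTB by 0.55, ankyrin ANK1 by 0.41, and the anion exchanger SLC4A1, on 17q, by 1.41. ACHE (-1.10) and ADD2 (-0.60) were lower.

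Among 32 erythroid and haematopoietic transcription factors and related genes, 11 were higher and 5 lower (median 0.07). GATA1 (0.18), KLF1 (0.18), TAL1 (0.39 ± 0.05), the GATA1 cofactor ZFPM1 (0.48), FOXO3 (0.68 ± 0.07) and the myeloid factor SPI1 (0.82) were higher. MYB, which keeps progenitors cycling, was lower (265 to 212 CPM, -0.32), as were IKZF1 on 7p (-0.44) and HOXB4 on 17q (-0.60 ± 0.05). LMO2 was not called (0.01). Without KRAB-D9 replicate 2, 3 were lower. All 8 called falls among 15 HOX genes were of the HOXB cluster on 17q, from -0.52 (HOXB3) to -1.39 (HOXB6), with HOXB9 at 201 and 187 against 95.4 and 95.5 CPM. HOXC4 was higher by 0.75, a call lost without parental replicate 1, parental replicate 2 or KRAB-D9 replicate 2.

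**Figure D4:**
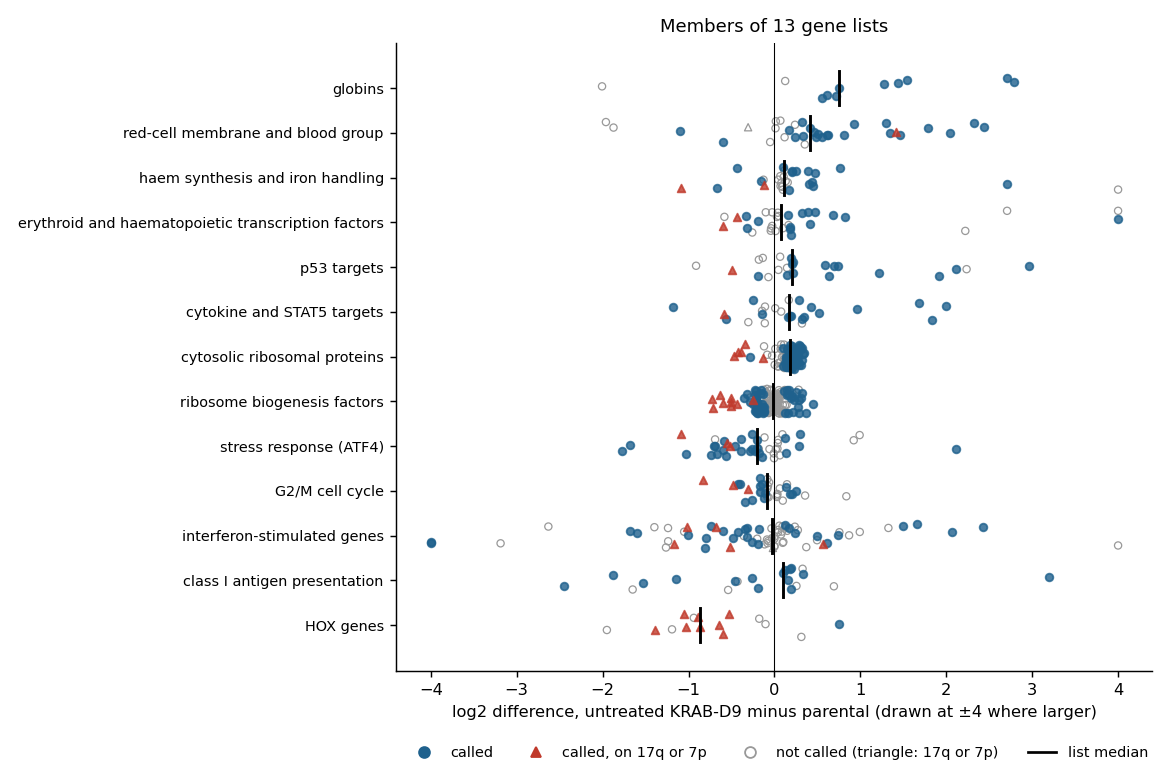
Log2 difference between untreated KRAB-D9 and parental cells for the tested members of 13 gene lists, 1 symbol per gene, filled where called. Black bars give the list median, from 0.75 for globins to -0.86 for HOX genes, whose lower members are triangles because they lie on 17q.

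The share of called genes among markers of other blood lineages was 43.8% for megakaryocyte, 44.4% for myeloid and 25% for lymphoid genes. It was 41.7% over genes of at least 1 CPM and 28.5% over all tested genes. For lymphoid genes, which were low in every library, the 28.5% is the nearer reference. Without parental replicate 2, 3 megakaryocyte genes were higher, and without parental or KRAB-D9 replicate 1, 3 myeloid genes. Of 16 megakaryocyte and platelet genes tested, 5 were higher and 2 lower, with the tetraspanin CD9 (4.15 ± 0.50) and GNG11 higher, and F2RL3, a thrombin receptor, lower (-0.60 ± 0.09). Their summed level overlapped between the lines, at 345 and 339 CPM in parental and 329 and 344 CPM in KRAB-D9. Of 18 myeloid genes, 5 were higher and 3 lower. AIF1 (1.69 ± 0.13) was higher, and the proteoglycan SRGN (-0.87 ± 0.05) and the integrin ITGAM (-1.55 ± 0.15) lower, with a sum of 226 and 232 against 178 and 182 CPM. Lymphoid genes summed to at most 18.1 CPM in any library. Of 16, 3 were higher, namely TRBC1, TRBC2 and CD3G, and 1 was lower. CD8A and JCHAIN had no counts.

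Of 9 mast cell and basophil genes tested, 1 was higher and 2 lower (33.3% called, against 28.5% of all tested genes). ENPP3, a surface enzyme, was at 13.2 and 14.1 against 0.768 and 0.432 CPM (-4.47 ± 0.20) and MITF was higher by 0.32 ± 0.06. MS4A2 was lower (-2.18 ± 0.78, edgeR Benjamini-Hochberg adjusted p = 0.0356), a call that was lost without parental replicate 1 (adjusted p = 0.457) or KRAB-D9 replicate 1 (0.349). Of 12 stem and progenitor genes tested, 2 were higher and 3 lower (41.7% called, as over genes of at least 1 CPM). Among them IGF2BP1 on 17q (-0.58 ± 0.04) and IGF2BP3 on 7p (-0.47 ± 0.05) were lower and BEX2 higher (1.26 ± 0.15). Of mast cell genes 2 were higher without parental replicate 1 or KRAB-D9 replicate 2, and of stem cell genes 1 without parental replicate 2 or KRAB-D9 replicate 1. Whether the share of any cell type differed between the lines was not tested.

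Of 14 fibroblast and epithelial genes tested, 5 were higher and 4 lower (median 0.26). The 64.3% called compares with 41.7% of genes of at least 1 CPM. COL1A2, given above, was among the higher genes. Vimentin (VIM), the intermediate filament of mesenchymal cells, was at 323 and 320 against 163 and 165 CPM (-0.97 ± 0.04). KRT19 on 17q was lower by 1.46 ± 0.06 and fibronectin FN1 was lower too (61.7 to 22.6 CPM), while KRT8 and KRT18 were higher (0.26 and 0.44). Of 30 extracellular matrix genes tested 9 were higher and 4 lower (median 0.42), and the 43.3% called was near the share of all genes of at least 1 CPM. Over all tested genes it was 28.5%. COL18A1, the collagen from which endostatin is cut, was at 28.6 and 32.3 against 216 and 225 CPM (2.86 ± 0.15), and the metalloproteinase inhibitor TIMP1 at 83.4 and 82.9 against 147 and 155 CPM. LAMB1 (-0.60 ± 0.08) and COL5A1 (-2.43) were lower. Of 30 adhesion genes 4 were higher and 7 lower (36.7% called, against 41.7% of genes of at least 1 CPM and 28.5% of all tested). The integrin ITGB5 (-0.97 ± 0.14), PCDH9 (-1.37 ± 0.14) and PECAM1 on 17q (-1.36 ± 0.21) were among the lower ones. Without parental replicate 1, 2 adhesion genes were higher and 4 lower. Without parental replicate 2 or KRAB-D9 replicate 1, 2 were higher, and without KRAB-D9 replicate 2, 4 were lower. None of 19 clustered protocadherins tested was called by edgeR, the smallest adjusted p being that of PCDHGA4 (0.112), whose unadjusted p was the 1 under 0.05. Of the 48 in the file, 13 had no counts in the 4 libraries.

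Of 25 neural and synaptic genes 5 were higher (20%) and 7 lower (28%). The shares were 14.2 and 14.3% over all tested genes, and 20.9% each over genes of at least 1 CPM. The neurofilament NEFH was at 140 and 138 against 79.0 and 78.8 CPM (-0.82 ± 0.06).

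Cytosolic ribosomal protein genes leaned upward by a small amount. Of 80, 50 were higher and 6 lower, with a median of 0.18. The called rises ran from 0.10 (RPL11, RPSA) to 0.35 (RPL13A, 2042 and 2090 against 2616 and 2634 CPM). Of the 6 lower genes, 5 were the members on 17q or 7p, RPL23 (-0.48 ± 0.04), RPL19 (-0.43 ± 0.04), RPL27, RPL38 and RPL23A. RPL36AL (-0.28) was the only lower one outside those arms. Without the 5, 50 of 75 were higher and 1 lower.

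Ribosome biogenesis factors, which make and process ribosomal RNA, did not lean the same way. The share called was 41.3% (13.8% higher and 27.5% lower), near the 41.7% of genes of at least 1 CPM. Of those, 20.9% were called in each direction. Of 138, 19 were higher and 38 lower (median -0.02), and 11 to 12 were higher when 1 of the 4 libraries was left out. All 9 on 17q or 7p were lower, among them UTP18 (143 and 137 against 86.8 and 82.6 CPM, -0.73 ± 0.05), NOL11 (-0.71 ± 0.05), UTP6 (-0.50 ± 0.04) and UBTF, a factor of RNA polymerase I (-0.25). Of the 129 elsewhere, 19 were higher, such as fibrillarin FBL (0.28), and 29 lower, such as HEATR1 (-0.23). Of 13 mitochondrially encoded mRNAs, MT-ND5 (0.35 ± 0.06) and MT-ND6 (0.34 ± 0.10, edgeR Benjamini-Hochberg adjusted p = 0.027) were higher and MT-ND2 (-0.47 ± 0.07) and MT-ND4L (-0.27) lower. MT-ND5 and MT-ND6 overlap on opposite strands, and the MT-ND6 call was lost when any of the 4 libraries was left out (adjusted p from 0.0654 to 0.16), when 1 of the genes was also called lower in place of 2.

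Genes of the amino acid and stress response driven by ATF4 were mostly lower. Of 43, 24 were lower and 5 higher (median -0.20), and without 17q and 7p 21 of 40 were lower and 5 higher. PSAT1, an enzyme of serine synthesis, was at 74.5 and 75.4 against 24.2 and 22.4 CPM (-1.68 ± 0.07, edgeR Benjamini-Hochberg adjusted p = 8.85e-21). PHGDH, the enzyme before it, was lower by 0.74 on the log2 scale and PSPH, the one after it, on 7p, by 1.08. The cystine transporter SLC7A11 differed by -1.03, CHAC1 by -1.78 and ATF4 itself by -0.15. WARS1, which charges tRNA with tryptophan, differed by -0.60 ± 0.04. Higher members were 2 to 3 without parental replicate 1, KRAB-D9 replicate 1 or KRAB-D9 replicate 2. GDF15, a secreted stress cytokine, went against the list at 23.7 and 24.3 against 101 and 106 CPM (2.11 ± 0.08).

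GDF15 is also among the targets of p53, of which 13 of 23 were higher and 2 lower (median 0.20). K562 cells are known to lack functional p53. BTG2, an antiproliferative gene, was at 17.4 and 18.8 against 69.0 and 67.5 CPM (1.91 ± 0.07), GADD45A was higher by 0.69 ± 0.04 and the CDK inhibitor CDKN1A by 1.22 (6.25 to 14.5 CPM). FDXR, on 17q, was lower (-0.50). Without parental replicate 2, 1 target was lower.

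Of 32 G1/S genes, 10 were higher and 5 lower (46.9% called, against 41.7% of all genes of at least 1 CPM). CCND2 was at 66.0 and 62.2 against 23.9 and 22.6 CPM (-1.46 ± 0.08), while CCND1 (0.98) and CCND3 (0.39) were higher, as were the CDK inhibitors CDKN1C (1.34 ± 0.09) and CDKN1B (0.26). CDC6, on 17q, was lower (-0.63 ± 0.04). Without KRAB-D9 replicate 2, 6 G1/S genes were higher, and without KRAB-D9 replicate 1, 2 were lower. Of 32 G2/M genes, 4 were higher and 13 lower (median -0.08). ANLN on 7p (-0.83 ± 0.05), TOP2A on 17q (-0.48 ± 0.04), HMMR (-0.42 ± 0.05) and CDC20 (-0.34) were lower, and MKI67 was higher (0.18). Without 17q and 7p, 10 of 29 were lower, and without parental replicate 2, 8 of all. Without parental replicate 1 or KRAB-D9 replicate 2, 2 were higher.

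Targets of cytokine and STAT5 signalling, which BCR-ABL1 drives in this leukaemia, were higher in 12 of 25 cases and lower in 5 (median 0.17). ID2, an inhibitor of helix-loop-helix factors, was at 4.2 and 3.8 against 14.4 and 14.3 CPM (1.84 ± 0.11). EGR1 was higher by 1.99, PIM1 by 0.28 and CISH by 0.32. ETV5 (-1.18 ± 0.10) and SPRY4 (-0.57) were lower. Of 30 cholesterol and lipid synthesis genes 11 were higher and 9 lower, with the desaturase FADS1 at 841 and 805 against 599.8 and 603 CPM (-0.45 ± 0.04) and SREBF2 higher by 0.45.

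Interferon-stimulated genes were mixed before any interferon was added. Of 72 tested, 11 were higher (15.3%) and 21 lower (29.2%). The shares were 14.2 and 14.3% over all tested genes, and 20.9% each over genes of at least 1 CPM. The list median was -0.02, or 0.04 with genes at 0 in 1 line set to their bound. Without KRAB-D9 replicate 1, 7 were higher. IFI44, IFI44L, OAS2 and CXCL10 had no counts. CMPK2, a mitochondrial nucleotide kinase, was at 13.8 and 14.7 against 45 and 44.6 CPM (1.66 ± 0.07), and its neighbour RSAD2, which encodes viperin, was higher by 1.5. SAMHD1, a dNTP hydrolase, was at 37.0 and 36.2 against 20.4 and 21.6 CPM (-0.80 ± 0.06). RNF213 on 17q differed by -1.17 ± 0.06, the RNA sensor IFIH1 by -1.60, ISG15 by -0.59 and IFITM1 by -0.18, and BST2 by 0.50. Of 18 genes of interferon receptor signalling 3 were higher, with IFNGR1 at 0.70 ± 0.07, and 3 lower. The 33.3% called compares with 41.7% of genes of at least 1 CPM and 28.5% of all tested genes. STAT3 (-0.58 ± 0.04) and SOCS3 (-1.02 ± 0.11), both on 17q, were 2 of the lower ones. STAT2, IRF9 and IFNAR2 were not called.

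In class I antigen presentation 8 of 21 genes were higher and 7 lower. Higher genes fell to 3 without parental or KRAB-D9 replicate 2, and to 4, with 4 lower, without KRAB-D9 replicate 1. The lower ones include the inducible peptide transporter and immunoproteasome genes TAP1 (4.70 and 4.28 against 0.937 and 0.682 CPM, -2.45 ± 0.20), TAP2 (-0.46), PSMB8 (-1.88) and PSMB9 (-1.15), which lie together on 6p. B2M, the shared light chain, was at 395 and 409 against 510 and 503 CPM (0.33 ± 0.04), and the chaperone CANX was lower by 0.26 ± 0.03. Of 10 class II genes 1 was higher, the protease CTSS (0.63 ± 0.09), and 1 lower, the regulator RFXANK (-0.18 ± 0.06), whose call was lost without parental replicate 2 (edgeR adjusted p = 0.17) or KRAB-D9 replicate 1 (0.322), while 2 genes were lower without parental replicate 1. RFX5 was not called (-0.18, edgeR adjusted p = 0.066). The share called was 20% of class II genes, against 28.5% of all tested genes. Of 21 inflammatory NF-kB targets 4 were higher, with CD83 at 1.11 ± 0.14, and 5 lower, with TNFAIP2 at -0.46 ± 0.06 and CXCL3 at -1.63 ± 0.27. The 42.9% called compares with 41.7% of genes of at least 1 CPM and 28.5% of all tested genes.

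Of 41 cancer-testis genes, which are silent in most adult tissues, 10 were higher and 10 lower (24.4% each, median 0.07), near the 20.9% of all genes of at least 1 CPM. Over all tested genes the shares were 14.2% higher and 14.3% lower. MAGEA1 was at 44 and 44.3 against 1.2 and 0.773 CPM, 43.8-fold lower (-5.45 ± 0.13, edgeR Benjamini-Hochberg adjusted p = 2.15e-29), and CTAG2 had 846 and 789 counts in parental cells against 1 and 0 (ratio 1515, exact 95% counting interval 272 to 59879). SSX3 was at 26.3 and 24.7 against 0.0375 and 0.0682 CPM. PRAME (0.14), PAGE5 (0.70) and VCX3A (2.00) were higher. Several of these families have close copies, so single members are uncertain. Of 32 imprinted genes 5 were higher and 7 lower (37.5% called), and 4 and 3 were lower without parental and KRAB-D9 replicate 2. Over genes of at least 1 CPM 41.7% were called, and over all tested genes 28.5%. DLK1 was at 33.5 and 33.2 against 117.8 and 122.9 CPM (1.85 ± 0.07) and H19 higher by 1.38. Lower were NDN (-2.64), GRB10 on 7p (-0.94 ± 0.05) and the noncoding MEG3 (-4.76), from the same locus as DLK1.

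Of 38 genes of the machinery through which KRAB domains repress, 7 were higher (18.4%) and 10 lower (26.3%), near the share of all genes of at least 1 CPM (median -0.06). When 1 of the 4 libraries was left out, 3 to 4 were higher. The scaffold TRIM28, which KRAB binds, was at 811 and 794 CPM in parental and 792 and 796 CPM in KRAB-D9 cells and was not called, and nor was the H3K9 methyltransferase SETDB1 (55.9 and 53.2 against 58.5 and 60.4 CPM). The HP1 genes CBX1 on 17q (-0.61 ± 0.05) and CBX3 on 7p (-0.60 ± 0.05) were lower, as were RBBP4 (-0.28 ± 0.04), DNMT1 (-0.30) and HDAC1 (-0.23).

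The same question was then put to the 4 libraries with IFN, which share no library with the untreated ones. There 3073 genes were higher and 3069 lower in KRAB-D9 (13.9% higher and 13.9% lower). Called in both conditions were 2116 higher genes (67.3% of the untreated and 68.9% of the IFN calls) and 2224 lower ones (70.3% and 72.5%), and 12 were called in opposite directions. Over 13259 genes of at least 1 CPM the differences in the 2 conditions had a Pearson r of 0.902 and a Spearman rho of 0.789. Over all 22143 genes, many with few counts, they were 0.502 and 0.516. This is a description across genes of the same lines, fitted in 1 model, and genes are not independent. All 12 of the largest rises and all 12 of the largest falls were also called with IFN, on the same side. STRA6 then differed by 3.99, ALAS2 by 2.64, HBZ by 2.40, GDF15 by 1.94, PSAT1 by -1.35 and MAGEA1 by -6.21. Globins were higher in 7 of 11 cases and lower in none, and stress response genes lower in 21 of 43. Interferon-stimulated genes were higher in 29 and lower in 13 of 72.

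The line difference itself changed with IFN for 67 genes (0.303%). Beside SAMD9 and SAMD9L these include TAP1, whose difference moved from -2.45 to -0.49, SAMHD1, from -0.80 to -0.05, and CMPK2, from 1.66 to 0.53. The KRAB-D9 libraries with IFN were the least alike pair of the series, with a variance between them of 17.9 times that of counting, where the remaining groups had 4.59 to 6.67. In a median version of this measure the contrast was smaller, at 8.22 against 4.09 to 5.58. Without the second of these KRAB-D9 libraries, 992 genes were called.

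**Figure D5:**
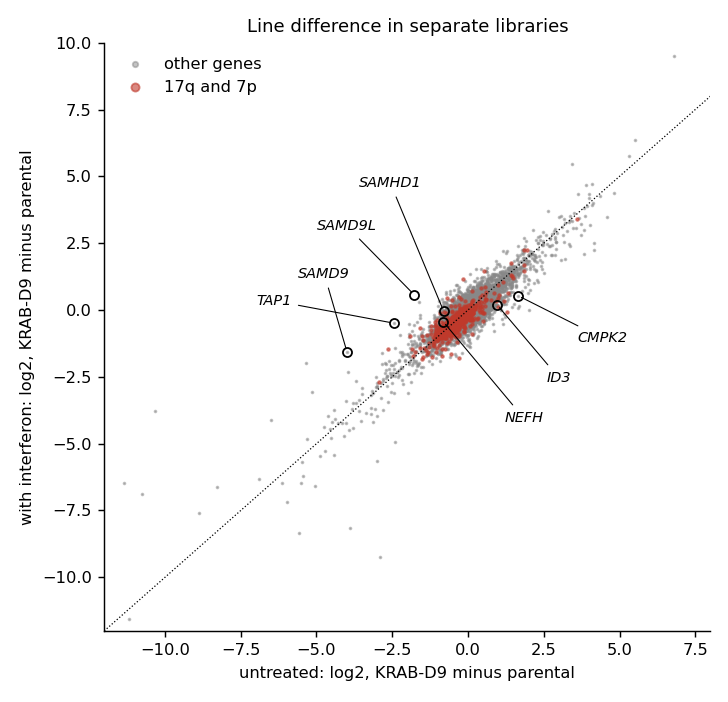
Log2 difference between KRAB-D9 and parental cells without (horizontal) and with IFN (vertical) for 13259 genes of at least 1 CPM, with genes of 17q and 7p in red and a dotted line of equality. Open circles mark 7 named genes whose difference changed between the conditions, such as SAMD9 (-3.99 and -1.57).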

How the data were processed

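Polyadenylated RNA of 18 K562 libraries (9 groups of 2) was sequenced. The deposited values are raw counts per gene for 41285 genes. Tools listed in the submitters' processing notes are STAR 2.7.8a, featureCounts 2.0.2, FastQC 0.11.9 and cutadapt 2.10, with build GRCh38.p13. Not given in the sources used here: annotation release, strand setting, handling of multi-mapped reads.

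Counts were filtered with filterByExpr (22143 genes kept) and TMM-scaled, and edgeR 4.0.16 fitted 1 robust quasi-likelihood model, a mean for each of 9 groups, over all 18 libraries (R 4.3.3; 9 residual degrees of freedom, common biological coefficient of variation 0.0569). The standard error is the size of the log2 difference over the square root of F. Dispersion is shared, so errors of comparisons with KRAB-D9 given IFN may be too small. Low-count differences depend on edgeR's prior count. The script was tested on simulated data. Untreated replicate numbers did not pair the libraries (correlation of their deviations -0.03).

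Named were SAMD9 and SAMD9L; the 12 called genes with the largest rise and fall (approved symbol, mean of at least 1 CPM, libraries of the lines not overlapping); the 6 with the largest CPM gain and loss; 3 members of each of 34 lists with the smallest adjusted p; and 5 silent-to-expressed genes per direction. Other list members are named as examples. Some genes that this rule names are not reported here. The members and lists were chosen with earlier results of these data known. Chromosome arms, split at rounded centromere positions, were looked at after seeing the data. Gene positions are those of the deposited table, symbols come from a gene name table, and promoters from RefSeq (GRCh38.p14). A check of CG content in promoters of protein-coding genes changed over 2-fold was made, and nothing is read from it. Of these genes 74.1% of the higher and 79.3% of the lower had a RefSeq promoter, against 80.1% of all protein-coding genes tested. Figures were drawn with matplotlib in Python. Alternatives were other scalings, filters, sample sets, DESeq2 1.42.0, a replicate block and leaving out each library.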

Additional observations from a re-analysis of the deposited data

Results flagged for a closer look

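For 7 of the named genes the difference between KRAB-D9 and parental cells was not the same with and without interferon, by the test of that change itself (edgeR quasi-likelihood test, Benjamini-Hochberg adjusted over 22143 genes, of which 0.303% were called). The change, with IFN minus untreated, was 2.42 ± 0.19 for SAMD9 (adjusted p = 3.19e-09) and 2.36 ± 0.32 for SAMD9L (3.11e-05). TAP1 changed by 1.96 ± 0.23 (1.33e-06), from 4.49 and 0.81 CPM untreated to 45.2 and 32.0 CPM with IFN in parental and KRAB-D9 cells. SAMHD1 changed by 0.76 ± 0.08 (1.29e-07), from 36.6 and 20.98 to 144 and 139 CPM. CMPK2 changed by -1.12 ± 0.08 (2.33e-11), from 14.2 and 44.8 to 114 and 164 CPM.

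ID3, an inhibitor of helix-loop-helix factors, changed by -0.77 ± 0.17 (adjusted p = 0.0276), and the neurofilament gene NEFH by 0.38 ± 0.08 (0.0138). Both of these calls were lost when single libraries were left out (ID3 in 5 of 8 cases, NEFH in 5 of 8).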

How the results depend on the processing

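All counts of called genes in the main comparison stayed within 1.5 times of 6306. They were 5857 with DESeq2, 5883 with no filter on low counts and also 5883 with genes of at least 1 CPM, 6889 with only the 4 libraries compared, and 4789 to 4904 when 1 of the 4 was left out. Of 68 counts of higher or lower list members 13 to 15 moved by more than 1.5 times when 1 of the 4 was left out, 7 without genes of 17q and 7p, and 6 at 1 CPM. TMM factors without 17q and 7p moved the share of higher among called genes from 49.9 to 43.1% (2727 higher, 3602 lower), and moved 5 list counts. A further setting, only the 4 libraries compared, moved 4 list counts. Leaving out the KRAB-D9 IFN libraries also moved 4, and no filter on low counts moved 2. With a replicate block, 6261 genes were called, and 66 for the change of the line difference with interferon; replicate numbers did not pair the libraries (r = -0.03).

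The count of genes whose line difference changed with interferon was the least stable. It was 67, against 102 with DESeq2, 133 with no low-count filter, and 20 to 992 when 1 library was left out: 20 without parental IFN replicate 2, 26 without parental untreated replicate 2, 31 and 37 without KRAB-D9 untreated replicate 2 and 1, 105 without parental IFN replicate 1 and 992 without KRAB-D9 IFN replicate 2. The cause was not tested.

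Genes expressed in KRAB-D9 only numbered 10 from 0.5 CPM, 0 from 2 CPM, 1 with silence at 0 counts and 17 at up to 10 counts, and in parental cells only 39, 9, 7 and 44. These differences follow from the thresholds themselves. The 17q median of all tested genes (-0.47) was -0.48 at 1 CPM, -0.51 with TMM factors without those arms, and -0.50 to -0.46 when 1 library was left out. The 7p median (-0.39) was -0.42 with those factors and -0.41 to -0.38 when 1 was left out.

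No named gene reversed. Of 128, MS4A2 was lost with only the 4 libraries, and RFX5 was gained under 4 settings. Leaving out 1 library lost 8 calls, of MS4A2, RFXANK and MT-ND6. Low counts limit the genes near silence.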
